A study of Mus musculus with 6 samples.

Results

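The caseins are the main proteins of milk. Mouse casein transcripts were followed in mammary cells with a floxed insulin receptor gene that had or lacked a Cre transgene. The members were the 5 probe sets, of 28853 on the array, whose gene symbol was Csn1s1, Csn1s2a, Csn1s2b, Csn2 or Csn3, with 1 probe set for each gene, of 20805 genes that had a probe set of their own. RNA came from mammary epithelial cells isolated with collagenase on day 13.5 of pregnancy, when the alveolar epithelium is beginning to make milk proteins, from 6 female mice bred with CD1 males. All 6 carried the floxed insulin receptor allele (IRfl/fl), 3 of them without Cre (IRfl/fl Cre-, mice 1, 2 and 4) and 3 with Cre recombinase under a BLG promoter (IRfl/fl Cre+, mice 5, 6 and 7). BLG usually stands for beta-lactoglobulin, a whey protein gene, so Cre here is itself under the promoter of a milk protein gene. No group with Cre and an unfloxed receptor was analysed here, so Cre expression and receptor loss cannot be told apart. Each mouse gave 1 Affymetrix MoGene_1_0-st-v1 array, and the values are linear intensities after robust multi-array averaging (RMA), which brings the arrays to one scale.

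Caseins leave the cell as micelles, large particles that hold calcium phosphate in a soluble form. The calcium-sensitive caseins, alpha-s1 (Csn1s1), beta (Csn2) and the alpha-s2-like pair (Csn1s2a, Csn1s2b), bind the mineral through clusters of serines that a Golgi kinase phosphorylates, while kappa-casein (Csn3), which is glycosylated, covers the surface of the micelle and keeps it from aggregating. Prolactin acting through Jak2 and Stat5, together with glucocorticoid and with insulin, is the textbook inducer of casein transcription, and Elf5 is a transcription factor of the same alveolar programme.

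The 5 genes lie in 1 cluster on chromosome 5, in the order Csn1s1, Csn2, Csn1s2a, Csn1s2b and Csn3 in the RefSeq annotation of GRCm38.p6. RefSeq promoter windows of 300 bases, from 250 before to 50 after the annotated start, matched 3 of the 5 members, and they are shown because TTCNNNGAA, the core letters bound by Stat5 dimers, occurs once in each. The windows are chr5:87665958-87666257 on the plus strand for Csn1s1, chr5:87699376-87699675 on the minus strand for Csn2 and chr5:87774200-87774499 on the plus strand for Csn1s2a. Each is written 5′ to 3′ with the match in capitals.
Csn1s1: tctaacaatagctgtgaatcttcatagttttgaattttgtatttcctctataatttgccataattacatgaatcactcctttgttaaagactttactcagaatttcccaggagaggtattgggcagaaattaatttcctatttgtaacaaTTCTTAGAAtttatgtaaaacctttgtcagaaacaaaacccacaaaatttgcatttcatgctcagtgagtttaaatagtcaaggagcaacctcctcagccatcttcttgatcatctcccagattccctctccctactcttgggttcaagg
Csn2: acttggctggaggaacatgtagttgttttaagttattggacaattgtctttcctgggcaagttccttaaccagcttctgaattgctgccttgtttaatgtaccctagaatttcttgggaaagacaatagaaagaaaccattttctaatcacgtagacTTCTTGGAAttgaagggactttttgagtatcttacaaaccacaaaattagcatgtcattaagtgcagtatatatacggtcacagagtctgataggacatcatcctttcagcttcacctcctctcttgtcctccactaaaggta
Csn1s2a: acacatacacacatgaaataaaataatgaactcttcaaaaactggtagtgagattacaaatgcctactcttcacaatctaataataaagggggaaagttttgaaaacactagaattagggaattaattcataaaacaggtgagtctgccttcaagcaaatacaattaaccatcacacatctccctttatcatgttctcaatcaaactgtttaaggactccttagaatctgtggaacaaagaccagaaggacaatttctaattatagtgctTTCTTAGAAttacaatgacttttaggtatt
The match read TTCTTAGAA in Csn1s1, TTCTTGGAA in Csn2 and TTCTTAGAA in Csn1s2a. Its first base lay at -100 in Csn1s1, at -93 in Csn2 and at 21 in Csn1s2a, counted from the annotated start, so that the last match is downstream of the annotated start. Of 32851 promoter windows in the RefSeq table, searched on both strands, 8.30% held TTCNNNGAA and 1.37% held TTCTTNGAA, the narrower form chosen after these 3 windows had been read. A match of letters is a description of the sequence and does not show that a factor binds there.

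The first comparison asked which casein transcripts differed between the genotypes. Csn3, Csn1s1 and Csn1s2b fell in Cre+ cells, by 1.58-fold, 1.30-fold and 1.19-fold, while Csn1s2a (1.14-fold lower) and Csn2 (1.07-fold lower) did not pass the test. The fit was limma on log2 intensity over all 16921 tested probe sets, with Benjamini-Hochberg adjustment over all of them and a threshold of adjusted p under 0.05. Under that rule 3 of the 5 caseins were called lower, where 2.14% of all tested probe sets were called lower, 2.03% higher and 4.17% in either direction, and the median change of the 5 was -0.26 on the log2 scale against 0.00373 over all tested probe sets. In 4 of the 5, all Cre+ arrays lay below all Cre- arrays, an arrangement found at 12.7% of tested probe sets. The RNA is from a mixture of cells, in which fewer secretory cells and less casein RNA per cell cannot be told apart.

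**Figure D1:**
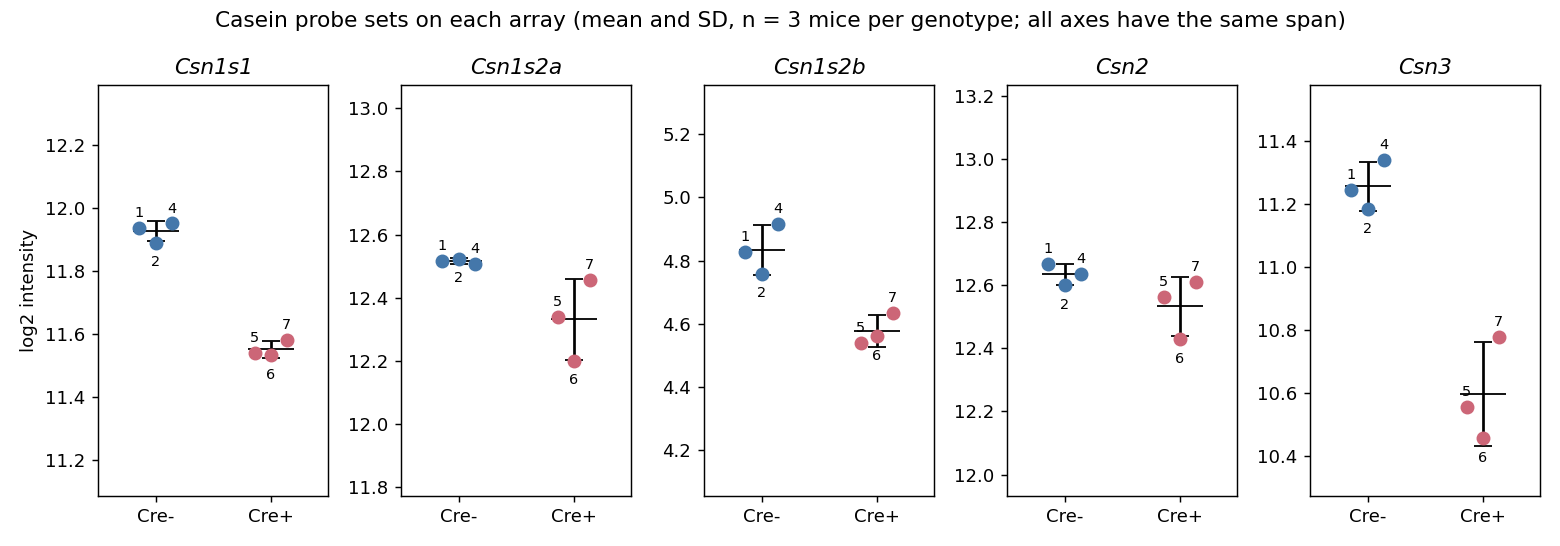
Log2 intensity of each casein probe set on each array (points, labelled by mouse number), with the group mean and SD over 3 mice, on vertical axes of equal span. Cre+ arrays lie below Cre- arrays for Csn1s1, Csn1s2a, Csn1s2b and Csn3, and the groups overlap for Csn2.

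Csn3 encodes kappa-casein. Its probe set 10522895 read 2423, 2325 and 2590.1 intensity units on the arrays of Cre- mice 1, 2 and 4, and 1506, 1406 and 1755 on those of Cre+ mice 5, 6 and 7. The groups did not overlap, and the highest Cre+ array was that of mouse 7. The mean was 2446 ± 134 (SD, n = 3) in Cre- cells and 1556 ± 180 (SD, n = 3) in Cre+ cells. The log2 change was -0.66 (SE 0.10, 95% interval -0.88 to -0.44, limma adjusted p = 0.0190), and 1.03% of tested probe sets had a lower change. When 1 array was left out, the adjusted p rose above the threshold for Cre- 2 (0.0620, change -0.69), for Cre+ 5 (0.0874, change -0.64) and for Cre+ 6 (0.0718, change -0.59).

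Csn1s1 encodes alpha-s1-casein, which in goats is needed for normal export of the other caseins from the endoplasmic reticulum. Probe set 10522827 read 3919, 3793 and 3957 in Cre- 1, 2 and 4 and 2980.1, 2963 and 3066 in Cre+ 5, 6 and 7. The values were tight within each group and the groups were separate. The means were 3889.6 ± 85.8 (SD, n = 3) and 3003 ± 55.1 (SD, n = 3), a log2 change of -0.37 (SE 0.06, 95% interval -0.51 to -0.23, limma adjusted p = 0.0233). Omitting Cre- 2 gave an adjusted p of 0.0843 and ended the call, as did omitting Cre+ 5 (0.101), Cre+ 6 (0.0861) or Cre+ 7 (0.0506), with changes between -0.39 and -0.36.

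Csn1s2b, one of the alpha-s2-like pair, was the only dim member. Probe set 10522858 read 28.4, 27.1 and 30.2 in Cre- 1, 2 and 4 and 23.2, 23.6 and 24.8 in Cre+ 5, 6 and 7, which is 1.23 to 1.59 times the lowest intensity on the same array. The groups were separate, but they lay close to the bottom of the scale. The log2 change was -0.26 (SE 0.05, 95% interval -0.37 to -0.14, limma adjusted p = 0.0363). No intensity in the file was below 18.7, and whether a constant was added before deposit is not given in the sources used here. With 16 subtracted from every value the change of Csn1s2b became -0.67 (adjusted p = 0.0337), so its size depends on the unknown zero of the scale. Of the 6 single-array omissions only that of Cre- 1 kept the call, since leaving out Cre- 2 gave an adjusted p of 0.0673, Cre- 4 gave 0.0755, Cre+ 5 gave 0.137, Cre+ 6 gave 0.122 and Cre+ 7 gave 0.0640. It was also lost when limma's variances were fitted without an intensity trend (0.0653). The 2 alpha-s2-like genes are paralogs, and cross-hybridization between their probe sets was not tested.

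Csn1s2a, the bright member of that pair, read 5862, 5889 and 5817 in Cre- 1, 2 and 4 and 5177, 4706 and 5615 in Cre+ 5, 6 and 7. The groups did not overlap, but the Cre+ arrays were spread widely, with an SD of 0.13 log2 units against 0.00898 in Cre- arrays, 14.2 times as large. The log2 change was -0.18 (SE 0.08, 95% interval -0.36 to -0.0044), and limma's adjusted p of 0.239 did not pass. Csn2, the beta-casein gene, read 6501, 6208 and 6363 in Cre- cells and 6045, 5511 and 6251 in Cre+ cells, and here the groups overlapped because Cre+ 7 stood above Cre- 2. Its change was -0.10 (SE 0.07, limma adjusted p = 0.494), and the 95% interval on the log2 scale ran from -0.26 to 0.06, which includes 0. Without Cre+ 6, the lowest array for both genes, the changes were -0.12 for Csn1s2a and -0.05 for Csn2. The exact permutation test on a single gene gave p = 0.2 for Csn2 and 0.1 for the other 4, and no comparison of 3 with 3 arrays can give less than 0.1.

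The authors' deposited table lists Cre+ over Cre- ratios of 0.64 for Csn3, 0.77 for Csn1s1, 0.84 for Csn1s2b, 0.88 for Csn1s2a and 0.93 for Csn2. The unadjusted p-values that stand beside them in the authors' deposited table were 0.0023, 0.0001, 0.0104, 0.0588 and 0.1485 in the same order. Recomputed as an equal-variance test on linear intensities and adjusted over all tested probe sets, that test called 0 of the 5 caseins and 0 of 16921 probe sets, of which 2861 had an unadjusted p under 0.05, among them 3 caseins.

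The second question was how close the caseins lay to the ceiling of the array. The brightest probe set on each array read between 9616 and 10919, and the median probe set between 28.4 and 29.3. Csn2 stood at 53.0% to 64.6% of that ceiling, with 6 to 8 probe sets brighter on an array, and Csn1s2a at 45.3% to 61.2%, with 9 to 12 brighter. Csn1s1 stood at 28.2% to 39.4% of the ceiling and Csn3 at 13.5% to 24.2%. These positions describe the measuring range only, because intensities of different probe sets do not give relative amounts of their transcripts. The 4 bright caseins were thus ordered by brightness exactly as they were ordered, inversely, by the size of their change, from Csn2 with the smallest to Csn3 with the largest.

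Changes were small at both ends of the brightness scale. Among the 25 brightest tested probe sets, with mean log2 levels from 11.8 to 13.4, the median absolute change was 0.05, and among the next 75 it was 0.07, against 0.15 for the 400 after those and 0.05 for the 8921 dimmest. The within-group SD had a median of 0.08 among the 25 brightest against 0.11 in those 400 and 0.07 in the 8921 dimmest. Of the 25 brightest, 2 were called lower and 0 higher. Both were milk protein genes from the whey list. Glycam1, a mucin-like milk glycoprotein, read 5886, 5561 and 5685 in Cre- cells and 3680.1, 3596 and 4197 in Cre+ cells, a log2 change of -0.58 (SE 0.08, limma adjusted p = 0.0148). Trf, the transferrin gene, read 5814, 5738 and 5411 and then 4672, 4224 and 4163, a change of -0.38 (SE 0.07, limma adjusted p = 0.0348). Their ranks by brightness were 13 and 10, where Csn2 ranked 5 and Csn1s2a 6, and the Cre- readings of Glycam1 overlapped those of Csn1s2a. The Glycam1 call ended when Cre- 2 (adjusted p = 0.0576), Cre+ 5 (0.0768) or Cre+ 6 (0.0703) was omitted, and the Trf call for every single omission but that of Cre- 4 (0.0584 to 0.131). No saturation flags were available for the analysis, and whether the signals of Csn2 and Csn1s2a were compressed was not tested.

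**Figure D2:**
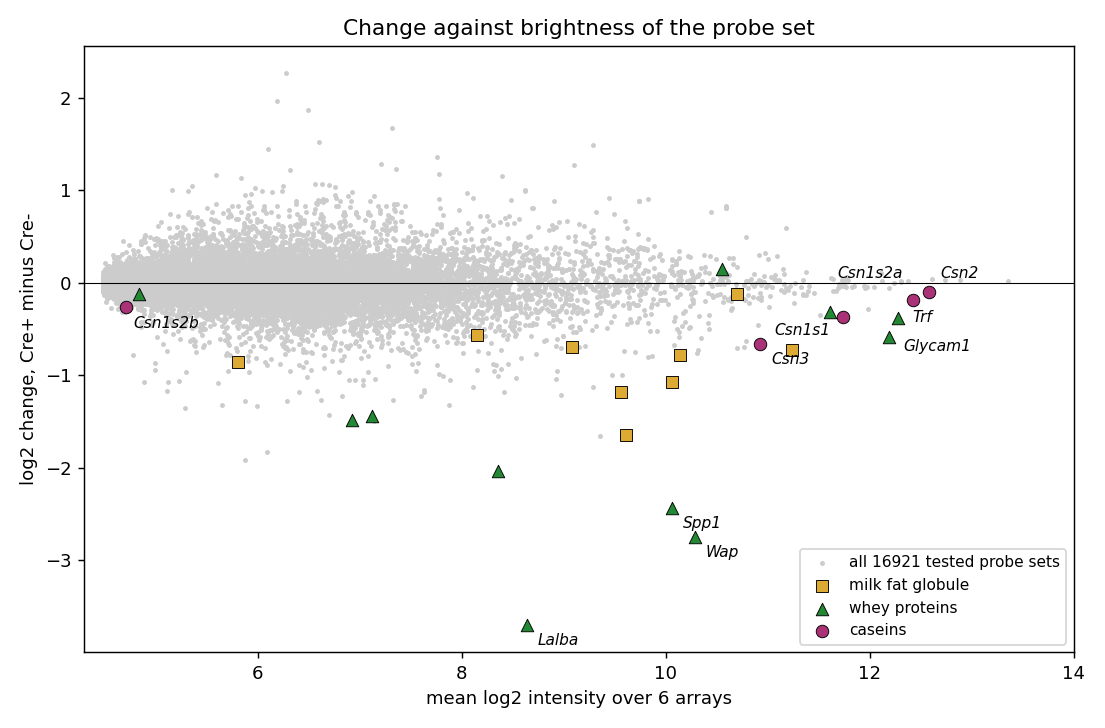
Log2 change (Cre+ minus Cre-) of the 16921 tested probe sets against their mean log2 intensity over 6 arrays, with caseins as circles, whey proteins as triangles and milk fat globule genes as squares. Csn2 and Csn1s2a lie at the bright end near 0, beside Trf and Glycam1, which lie lower, and Csn1s2b lies at the dim end.

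The third comparison asked whether the caseins changed by unequal amounts, using the log2 difference between 2 caseins within each array, in which anything that scales a whole array cancels. Csn3 relative to Csn2 was -1.42, -1.42 and -1.30 in Cre- 1, 2 and 4 and -2.01, -1.97 and -1.83 in Cre+ 5, 6 and 7, a difference of -0.56 between the genotypes. Csn3 relative to Csn1s1 was -0.69, -0.71 and -0.61 in Cre- cells and -0.98, -1.08 and -0.80 in Cre+ cells, a difference of -0.28. Csn1s1 relative to Csn2 differed by -0.27, Csn3 relative to Csn1s2a by -0.47, and Csn1s2a relative to Csn2 by -0.08. Of the 10 pairs, 9 had separate groups, and the exception was Csn1s2b with Csn1s2a (-0.07, exact permutation p = 0.4). The share of separate groups among pairs of other probe sets was not computed, so this count has no background. For single tested probe sets, all Cre+ arrays lay below all Cre- arrays at 12.7% and above them at 12.9%. The exact two-sided permutation p was 0.1 for each of the 9, the smallest possible, and 0.111 after adjustment over the 10 pairs, so none passed the threshold, which this permutation test cannot reach with 3 against 3 arrays. A 95% interval from the pooled spread of the 3 and 3 differences, which assumes normal errors and is not adjusted over the pairs, ran from -0.74 to -0.37 for Csn3 relative to Csn2 and from -0.52 to -0.05 for Csn3 relative to Csn1s1, and 7 of the 10 such intervals lay below 0. The casein with the larger observed fall was written first in every pair, so the negative sign follows from that order, and the pairs share members. After 16 was subtracted from every intensity, 2 pairs that involve the dim Csn1s2b changed sign, with Csn3 minus Csn1s2b going from -0.40 to 0.00309 and Csn1s1 minus Csn1s2b from -0.12 to 0.29. Both of these pairs were among the 7 with an interval below 0 before the subtraction. Others of the 7 involve Csn2 or Csn1s2a, the caseins nearest the ceiling, for which compression was not tested.

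**Figure D3:**
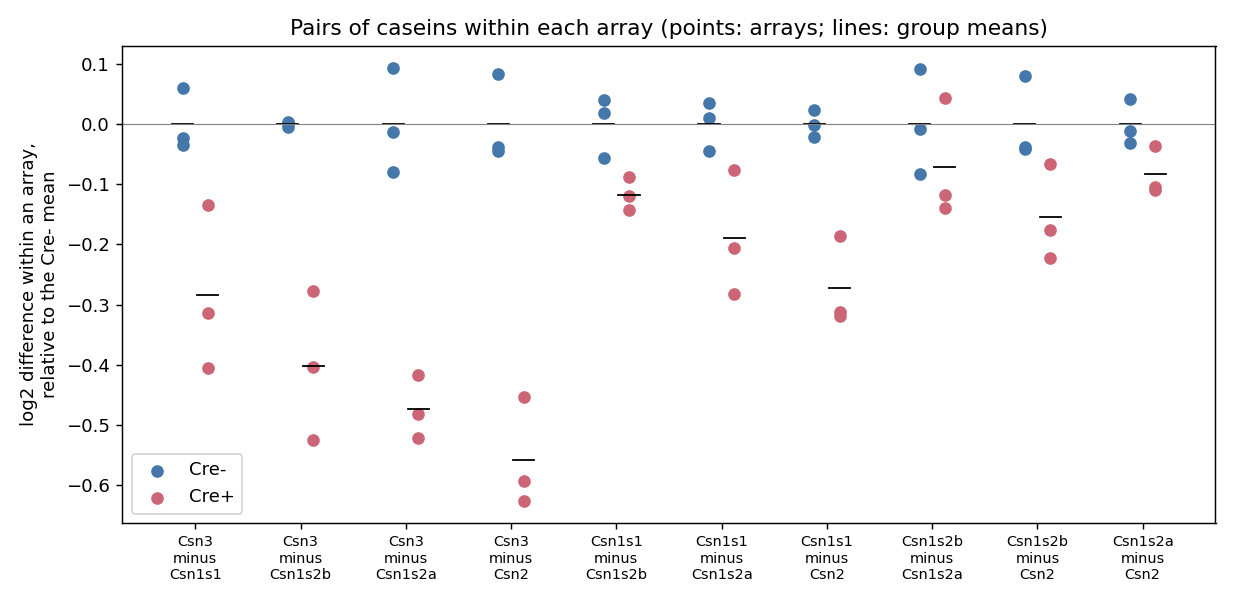
Log2 difference between 2 caseins within each array (points), shown relative to the Cre- mean of that pair, with group means as lines. Each pair has the casein with the larger observed fall first, which sets the sign, and the genotypes are separate in 9 of 10 pairs, most for Csn3 against Csn2, and overlap for Csn1s2b against Csn1s2a.

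Among the Cre+ arrays the bright caseins kept 1 order. Mouse 7 was highest, mouse 5 next and mouse 6 lowest for Csn1s1, Csn1s2a, Csn2 and Csn3, an order that 17.9% of tested probe sets shared. Csn1s2b was also highest in mouse 7, but lowest in mouse 5. Insr, the targeted gene, followed the order of the bright caseins at both of its probe sets. At probe set 10576692 it read 106, 104 and 122 in Cre- 1, 2 and 4 and 55.2, 47.7 and 71.2 in Cre+ 5, 6 and 7, and at 10576696 it read 80.4, 77.6 and 86.7 and then 56.2, 53.6 and 61.2. The position of these probes relative to the floxed part of the gene is not given in the sources used here. Over the 6 arrays, which share the division into 2 genotypes, Pearson's r between caseins ranged from 0.72 for Csn1s1 with Csn2 to 0.98 for Csn3 with Csn1s1.

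By the same measure, the genes most like each casein were named from the 3 highest correlations over the 6 arrays, given as a description. Csn3 was followed by Inpp5k (r = 0.999), an inositol phosphatase, Ccpg1 (0.998), a receptor for autophagy of the endoplasmic reticulum, and Stx18 (0.998), a SNARE protein of the endoplasmic reticulum. Csn1s1 was followed by Arhgap12 (0.999), Fam18b (0.998) and Tnfrsf11a (0.997), which encodes RANK, the receptor for RANKL in mammary alveolar growth. Csn2 was followed by Kdm6a (0.986), a histone demethylase, Copg2 (0.986), a coat protein of Golgi vesicles, and Extl3 (0.986). Csn1s2a was followed by Asah1 (0.994), the acid ceramidase, D5Ertd579e (0.990) and Hnrnpa3 (0.988), and Csn1s2b by Pik3c3 (0.996), Map3k2 (0.995) and Sec11c (0.994), a signal peptidase subunit. The named genes were not alone at high values over these 6 points. Of 16921 tested probe sets, 215 exceeded r = 0.95 with Csn3, 269 with Csn1s1, 161 with Csn1s2b, 59 with Csn1s2a and 45 with Csn2. Of the 15 genes, Inpp5k (-0.57), Ccpg1 (-0.63), Fam18b (-0.51) and Tnfrsf11a (-0.39) passed the limma test. All 15 had lower Cre+ means, a direction that follows from choosing them for their correlation with caseins over the same arrays.

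The genes lying among the caseins were near the bottom of the scale in both genotypes. Prr27 (listed as 4930432K09Rik), the pseudogene Gm7337, Odam and BC037156, the 4 measured non-casein genes between Csn1s1 and Csn3, read between 19.9 and 23.0 on all arrays. Odam, which in rodents is made by ameloblasts of the tooth, read 20.2, 20.1 and 20.2 in Cre- cells and 20.0, 20.0 and 20.1 in Cre+ cells, and lies between Csn1s2b and Csn3 in the cluster. Of 15 listed genes in and around the cluster, 13 were on the array, 9 were below the intensity filter (19.5 to 23.8), and 0 of the 4 tested were called by limma, with 1 at an unadjusted p under 0.05. Changes were 0.07 for Utp3, 0.07 for Rufy3 and 0.00461 for Cabs1. The other tested neighbour, Jchain (listed as Igj), the joining chain of antibodies, read 182, 44.0 and 61.7 in Cre- cells and 21.6, 31.2 and 47.4 in Cre+ cells, and its change of -1.32 (SE 0.51) did not pass.

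Among the genes that process caseins into micelles, 4 had larger falls than any casein, a difference that was not itself tested. Of 16 genes for casein phosphorylation, glycosylation and micelle mineral, 4 fell, 0 rose (1 at an unadjusted p under 0.05) and 12 did not pass, where 2.14% of tested probe sets were called lower, and the list's median change was -0.23. Fam20c, the Golgi kinase that phosphorylates caseins, read 484, 454 and 449 in Cre- 1, 2 and 4 and 261, 223 and 246 in Cre+ 5, 6 and 7. The groups were far apart, and Fam20c fell by 0.93 on the log2 scale (SE 0.08, 1.90-fold, limma adjusted p = 0.00412). Fam20a, the pseudokinase that activates Fam20c, read 679.9, 582 and 672 and then 436, 364 and 384, and fell by 0.71 (SE 0.10, 1.63-fold, limma adjusted p = 0.0162), a call that ended when Cre+ 5 (adjusted p = 0.0546) or Cre+ 6 (0.0703) was omitted.

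Both of the other called genes of this list are transporters of micelle minerals. Atp2c2, a Golgi calcium pump, read 273, 218 and 223 in Cre- cells and 91.2, 76.6 and 84.3 in Cre+ cells, and fell by 1.50 on the log2 scale (SE 0.11, 2.82-fold, limma adjusted p = 0.00303). Slc34a2, a sodium-phosphate cotransporter of the alveolar cell, read 285, 293 and 317 and then 137, 123 and 137, and fell by 1.17 (SE 0.08, 2.26-fold, limma adjusted p = 0.00258). The calls of Fam20c, Atp2c2 and Slc34a2 held whichever single array was left out. The related calcium pump Atp2c1 changed by -0.46 (SE 0.11, adjusted p = 0.0548) and Galnt1, which starts O-glycan chains such as those of kappa-casein, by -0.34 (SE 0.08, adjusted p = 0.0678), neither past limma's threshold. The number of genes in the list that fell was 7 when the mean of the luminal structure genes was a covariate, where 4.96% of all tested probe sets were called lower. It was 3 without Cre+ 5 or without Cre+ 6, where 0.183% and 0.160% of all tested probe sets were called lower. In the linear equal-variance test, which called no probe set, the number was 0.

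**Figure D4:**
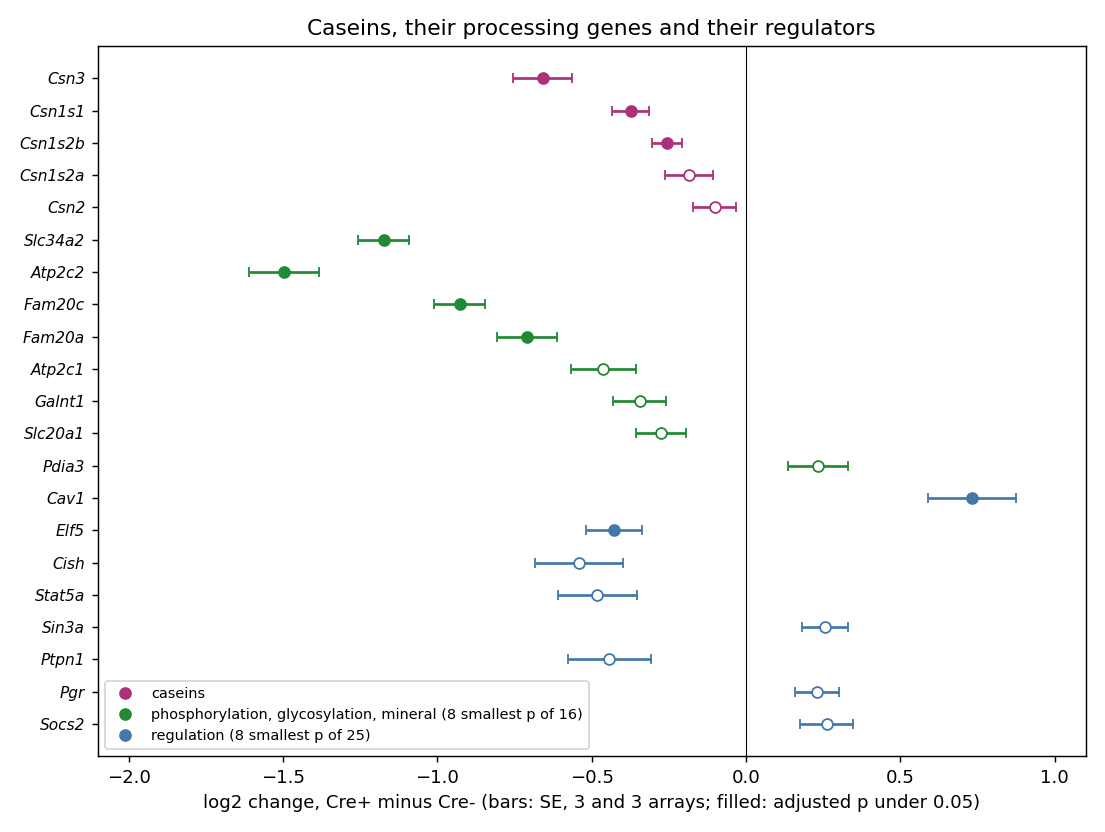
Log2 change (Cre+ minus Cre-) with SE from the limma fit for the 5 caseins, 8 of 16 processing and mineral genes and 8 of 25 regulators (the smallest p of each list), filled where adjusted p was under 0.05. Atp2c2, Slc34a2, Fam20c and Fam20a lie further to the left than any casein, and Cav1 lies to the right of 0.

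Of 25 genes of casein gene regulation, 1 fell, 1 rose and 23 did not pass, with a median change of 0.02. These counts are near the background, in which 2.14% of all tested probe sets were called lower and 2.03% higher, and so are no result about the regulators as a group. Elf5 read 1190.0, 1470.1 and 1417 in Cre- cells and 1004, 999.8 and 1016 in Cre+ cells, and fell by 0.43 (SE 0.09, limma adjusted p = 0.0462). Cav1, the caveolin that restrains Jak2 in mammary epithelium, read 133, 131 and 99.8 and then 179, 192 and 231, and rose by 0.73 (SE 0.14, limma adjusted p = 0.0366). Neither call survived the omission of any single array other than Cre- 1, with adjusted p from 0.101 to 0.158 for Elf5 and from 0.0708 to 0.112 for Cav1. Without the intensity filter the Elf5 call was also lost (adjusted p = 0.0536).

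Of the prolactin pathway genes Stat5a, Stat5b, Jak2, Prlr and Cish, limma called none, and Stat5a and Cish had an unadjusted p under 0.05. Stat5a read 560.3, 631 and 729.8 in Cre- cells and 498, 486 and 391 in Cre+ cells, separate groups with a change of -0.48 (SE 0.13, adjusted p = 0.0838), which passed under 5 of 18 alternative settings. Cish, a target and inhibitor of Stat5, changed by -0.54 (SE 0.14, adjusted p = 0.0808), while Stat5b changed by -0.10 (SE 0.12), Prlr, the prolactin receptor, by -0.17 (SE 0.10) and Jak2 by -0.18 (SE 0.13). Nr3c1, the glucocorticoid receptor, changed by -0.22 (SE 0.10) and Cebpb, a further activator of the beta-casein promoter, by 0.02 (SE 0.15).

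Other milk protein genes showed changes both larger and smaller in size than that of Csn3, the casein with the largest change. Of 11 tested whey and defence protein genes 9 fell and 0 rose, where 2.14% of all tested probe sets were called lower, with a median change of -1.44. Lalba read 1191, 1169.6 and 2119 in Cre- 1, 2 and 4 and 109, 88.5 and 142 in Cre+ 5, 6 and 7, and fell by 3.69 (SE 0.26, limma adjusted p = 0.00258). Wap, the whey acidic protein gene, read 5277, 2206 and 2890.5 and then 347, 363 and 879, and fell by 2.75 (SE 0.42, limma adjusted p = 0.0202). The Wap call ended when Cre+ 5 (adjusted p = 0.0868) or Cre+ 6 (0.0880) was omitted. It was also lost in limma's robust variance fit of all 6 arrays (adjusted p = 0.0638). The next genes by p were Spp1, the osteopontin gene (-2.43, SE 0.25), Pigr, the receptor that carries antibodies into milk (-2.03, SE 0.24), and Ltf, the lactoferrin gene (-1.48, SE 0.15), whose call ended without Cre+ 6 (adjusted p = 0.0513). Smaller changes than that of Csn3 were found for Glycam1 (-0.58), Trf (-0.38), Expi (-0.31), Lpo (-0.12) and Lcn2 (0.15), of which Lpo and Lcn2 did not pass. The Wap reading in Cre- 1 lay within the range that Csn1s2a covered in Cre+ arrays, while those in Cre- 2 and Cre- 4 lay below it. Of 9 milk fat globule genes 8 fell and 0 rose, with a median change of -0.78, among them Mfge8 (-1.07, SE 0.10), Btn1a1 (-1.18, SE 0.12), Plin2, which coats lipid droplets (-0.73, SE 0.08), and Cidea, a lipid droplet protein (-0.86, SE 0.11). The Plin2 and Cidea calls ended when Cre+ 5 (adjusted p = 0.0606 and 0.0680) or Cre+ 6 (0.0625 and 0.0703) was omitted. The change was -0.56 for Muc1 and -0.12 for Muc15, which did not pass, both smaller in size than that of Csn3. These are medians over lists chosen with earlier results known, and the difference between the lists was not tested. Omitting Cre- 2 left 5 whey genes called lower, omitting Cre+ 5 left 3 and omitting Cre+ 6 left 2, and the milk fat globule counts were then 4, 2 and 2. In those fits 0.355%, 0.183% and 0.160% of all tested probe sets were called lower, against 2.14% in the reported fit.

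The labelled cell type was mammary alveolar cell. Of the luminal structure genes, keratins 8 and 18 (Krt8, Krt18) were bright on every array, with Krt8 between 808 and 1508. Others of that list were dim, such as Krt7 (44.7 to 56.0) and Elf3 (29.7 to 39.8). The basal myoepithelial marker Acta2 read 1557 to 3054, so these readings do not establish the label. The summed intensity of 10 luminal structure genes was 4016 to 6786 in Cre- and 3883 to 4809 in Cre+ arrays, overlapping ranges, and 0 of 10 were called by limma, although 2 had an unadjusted p under 0.05. The sum of 10 basal myoepithelial markers was 2729.7 to 4067 in Cre- and 4995 to 5291 in Cre+ arrays, with 4 of 10 called higher, where 2.03% of all tested probe sets were. With 1 array left out, the basal count was 0 to 2, in fits that called 46 to 781 probe sets over the array. The sum of 8 fibroblast markers was 488 to 1166 against 1089 to 1447 (2 of 8 higher), and that of 8 macrophage markers 701 to 1509 against 1397 to 1689.8 (2 of 8 higher). The macrophage count was 0 without Cre- 2, Cre+ 5, Cre+ 6 or Cre+ 7, 0 without the intensity trend and 4 with the lymphocyte covariate. At an unadjusted limma p under 0.05, 8 basal, 5 fibroblast and 3 macrophage markers were higher and 0 lower. Of 16921 tested probe sets, 3384 had such a p in either direction. Lymphocyte markers were highest in Cre- 1 (sum 1983) and Cre+ 7 (1189) and lay between 326 and 525 elsewhere, with 0 of 10 called and 0 at an unadjusted p under 0.05. Among the remaining lists limma called 0 of 5 adipocyte (sum 417 to 748 against 671 to 1023), 0 of 6 endothelial (306 to 571 against 416 to 631) and 0 of 8 hormone-sensing luminal genes (438 to 518 against 494 to 831), with 3, 1 and 3 at an unadjusted p under 0.05. Without Cre- 1 and Cre+ 7 the changes were -0.75 for Csn3, -0.38 for Csn1s1 and -0.29 for Csn1s2b, and all 3 calls held. With the mean of the luminal structure genes as a covariate they were -0.68, -0.38 and -0.26, and with that of the lymphocyte genes -0.64, -0.37 and -0.25, again with all 3 called. In these 2 covariate fits 4.96% and 5.45% of all tested probe sets were called lower, against 2.14% in the reported fit. With 6 arrays they cannot settle what part cell content had in the casein changes. The part of the luminal, basal, fibroblast, macrophage and other marker differences in the casein changes was not tested.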

How the data were processed

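Per the labels' protocols, RNA of 3 mice of each genotype was hybridized to 1 array per mouse. The deposited intensity of each probe set was made by RMA over core exons in Expression Console, per the labels, and lies on a linear scale from 18.7 to 10919. The software version, genome build and annotation are not stated in the material used here. The authors' deposited table also holds a ratio and a p-value per probe set. An equal-variance test on linear intensities matched 100% of the p-values within 2e-04, and the means matched 100% of the ratios within 0.01.

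Log2 was taken of the intensities. Probe sets naming 1 gene and with a mean log2 of at least 4.48 (linear 22.4), the 30th percentile over the array, entered the test, 16921 in all, with limma 3.58.1 in R 4.3.3 (lmFit, eBayes with an intensity trend, two-sided). All 5 caseins passed this filter. A change is the Cre+ mean minus the Cre- mean, and a list gene is represented by its brightest probe set. Exact permutation tests used Python 3.11.15. The fit was tested on simulated data. The number of arrays limits the precision, and the labels give no batch. The labels do not say that mice were unrelated.

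The members and lists were chosen with earlier results of these data known. Genes were named by a rule: all members, Insr, the 4 smallest p of each list of regulators, processing genes, cluster neighbours, whey proteins and milk fat globule genes, Stat5a, Stat5b, Elf5, Prlr, Lalba and Wap, and the 3 highest correlations per casein. Glycam1, Trf, Expi, Lpo, Lcn2, Muc1, Muc15, Atp2c1, Galnt1, Jak2, Nr3c1, Cebpb, Krt8, Krt18, Krt7, Elf3, Acta2, Prr27, Gm7337, Odam and BC037156 were named after their values were seen. RefSeq symbols and promoters are from GRCm38.p6. Alternatives were no filter, other variance models, array weights, centring, a subtracted constant, the linear test, covariates, and arrays left out.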

Additional observations from a re-analysis of the deposited data

How the results depend on the processing

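All 5 casein changes kept their direction under all 18 alternatives. Settings that altered only the filter or the variance model cannot change the estimate itself. A further setting used a second deposited copy of the values, which was identical to the first. For these settings an unchanged direction was fixed in advance and is no check. With 1 array left out, the changes ranged from -0.75 to -0.59 for Csn3, -0.39 to -0.36 for Csn1s1, -0.29 to -0.22 for Csn1s2b, -0.25 to -0.12 for Csn1s2a and -0.14 to -0.05 for Csn2, and the number of caseins called lower from 0 to 3, reaching 0 when Cre- 2, Cre+ 5 or Cre+ 6 was omitted and 1 when Cre+ 7 was. In the linear equal-variance test the count was 0, with changes of -0.65 (adjusted p = 0.117) for Csn3, -0.37 (0.0744) for Csn1s1 and -0.26 (0.177) for Csn1s2b. Without an intensity trend Csn1s2b was not called (-0.26, adjusted p = 0.0653). With 16 subtracted, Csn3 minus Csn1s2b became 0.00309 and Csn1s1 minus Csn1s2b became 0.29. The cause of these losses was not tested, but each omission leaves 5 arrays. The number of probe sets called over the array, 706 in the reported fit, was 46 to 781 with 1 array left out, 0 in the linear test, 1437 with array weights, 1529 with the luminal covariate and 1793 with the lymphocyte covariate. Alternatives for other lists were chosen after seeing the data. The fibroblast count of 2 was 7 without Cre- 1 or with the lymphocyte covariate, and ranged from 0 to 7 with 1 array left out. The basal count of 4 was 8 with that covariate, but 0 to 2 with 1 array left out, and 0 without Cre+ 5 or Cre+ 6. No paired analysis was possible because the groups share no replicate number. Signal close to background limits Csn1s2b.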
